A study of Mus musculus with 47 samples.

Results

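The genes described here build the DNA replication machinery and its nucleotide supply. They were chosen by name, and all 49 named genes were among the 22007 gene symbols of the expression table, whose capital spelling is kept here. By role there were 11 genes of origin licensing and the replicative helicase, 4 of the GINS complex, 8 of the sliding clamp and its loaders, 3 of the single-strand binding protein RPA, 9 of the polymerases and primase, 2 that join Okazaki fragments, 5 of nucleotide synthesis and 7 of chromatin assembly, fork protection and base excision. Their transcripts were measured by RNA sequencing in 47 libraries from 20 ovariectomized FVB mice. Mammary cells had been sorted into luminal mature (LM), luminal progenitor (LP) and mammary stem cell (MSC) fractions. Mice had been given, for 14 days, a sham treatment, estradiol plus progesterone (EP), or EP together with 1 of 2 steroids that block the progesterone receptor. These were telapristone acetate (group EP+TPA) and mifepristone (group EP+RU486). Each fraction had 4 libraries from separate mice per treatment, except LM EP with 3, and 16 of the 20 mice gave a library to more than 1 fraction. All groups lacked ovaries, including sham, so EP was compared with mice deprived of their ovarian hormones. No group received an antagonist without EP, and doses are not given in the sources used here.

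A cell copies its genome once per cycle. The origin recognition complex, CDC6 and CDT1 load the ring of MCM2 to MCM7 onto origins, geminin (GMNN) blocks a second loading, and GINS with CDC45 turns the ring into a moving helicase. Primase and polymerase alpha start each strand, the RFC loader places the PCNA clamp, and polymerases delta and epsilon extend. Ribonucleotide reductase (RRM1, RRM2), thymidylate synthase (TYMS), thymidine kinase (TK1) and dUTPase (DUT) supply the building blocks. Many of these genes are transcribed at the boundary of G1 and S phase under E2F factors, and in the mammary gland ovarian hormones are known to drive epithelial division.

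Start-site windows of 300 bases (250 before and 50 after the start, RefSeq, build GRCm38.p6) were found for 39 of the 49 genes. An E2F-type word of 8 letters (TTTCCCGC, TTTCGCGC, TTTGCCGC or TTTGGCGC, on either strand) was in a window of 14 of these 39 genes, or 35.9%, against 4.75% of the 8712 genes with a window among those tested in LP. The shorter word CCAAT, also sought on both strands and able to overlap an E2F-type word at its edge, was in 22 of the 39 (56.4%) against 42.8%. The 6 windows below are shown because they hold an E2F-type word, in capitals (words on opposite strands overlap in MCM5 and MCM6), and because the first 4 genes were higher with EP in LP and LM while the last 2, CDT1 and POLD3, were not. Counted from the start, the first base of the word lies after it in MCM3 (20 and 39), CDT1 (33) and POLD3 (18), and before it in MCM5, MCM6 and CDC6. Each window is written 5′ to 3′ along the gene.
MCM3, chr1:20820263-20820562, - strand: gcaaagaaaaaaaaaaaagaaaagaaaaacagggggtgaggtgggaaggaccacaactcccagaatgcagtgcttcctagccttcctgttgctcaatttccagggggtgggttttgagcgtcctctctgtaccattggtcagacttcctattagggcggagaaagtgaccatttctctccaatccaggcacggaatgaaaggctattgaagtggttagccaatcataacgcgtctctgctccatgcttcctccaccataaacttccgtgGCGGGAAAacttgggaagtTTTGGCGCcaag
MCM5, chr8:75109259-75109558, + strand: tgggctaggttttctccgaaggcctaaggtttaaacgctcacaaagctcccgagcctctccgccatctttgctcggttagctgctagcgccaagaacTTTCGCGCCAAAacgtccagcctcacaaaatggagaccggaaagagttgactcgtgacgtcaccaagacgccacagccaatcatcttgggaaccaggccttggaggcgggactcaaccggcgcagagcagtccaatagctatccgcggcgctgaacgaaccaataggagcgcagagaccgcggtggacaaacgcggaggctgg
MCM6, chr1:128359656-128359955, - strand: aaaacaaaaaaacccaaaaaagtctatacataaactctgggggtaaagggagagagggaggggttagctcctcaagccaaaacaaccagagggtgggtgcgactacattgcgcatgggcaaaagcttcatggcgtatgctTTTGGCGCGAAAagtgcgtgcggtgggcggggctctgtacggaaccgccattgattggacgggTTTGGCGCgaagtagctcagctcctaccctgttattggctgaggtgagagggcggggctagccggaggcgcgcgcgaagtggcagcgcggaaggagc
CDC6, chr11:98907901-98908200, + strand: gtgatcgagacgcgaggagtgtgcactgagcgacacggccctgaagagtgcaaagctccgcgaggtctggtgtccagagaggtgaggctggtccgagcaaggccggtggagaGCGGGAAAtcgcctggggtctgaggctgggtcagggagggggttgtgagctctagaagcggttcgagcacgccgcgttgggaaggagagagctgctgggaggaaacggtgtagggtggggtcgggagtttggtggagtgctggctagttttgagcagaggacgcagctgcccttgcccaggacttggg
CDT1, chr8:122567765-122568064, + strand: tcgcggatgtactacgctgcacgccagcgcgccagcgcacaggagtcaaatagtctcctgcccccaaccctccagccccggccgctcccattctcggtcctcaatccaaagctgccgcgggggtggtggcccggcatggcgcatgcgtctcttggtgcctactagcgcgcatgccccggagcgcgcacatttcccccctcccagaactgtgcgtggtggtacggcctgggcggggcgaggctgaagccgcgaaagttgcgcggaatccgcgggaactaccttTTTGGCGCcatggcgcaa
POLD3, chr7:100121453-100121752, - strand: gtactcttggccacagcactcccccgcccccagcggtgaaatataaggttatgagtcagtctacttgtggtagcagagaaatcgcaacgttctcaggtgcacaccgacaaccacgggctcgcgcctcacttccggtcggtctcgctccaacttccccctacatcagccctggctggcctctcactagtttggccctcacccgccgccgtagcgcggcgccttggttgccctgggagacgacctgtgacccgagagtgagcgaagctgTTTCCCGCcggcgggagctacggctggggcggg

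Among the 14 genes with an E2F-type word, 12 were higher with EP in LP and 10 in LM, where GINS3 of the 14 was not tested. Among the 25 genes whose windows lacked these words the counts were 22 and 21. Of all genes tested, with or without such a word, 16.3% rose in LP and 10.3% in LM. CDC6 and GINS3 of the 14, and MCM10 and WDHD1 of the 25, were tested in LP only through the levels of their EP libraries. In LM this held for CDC6, MCM10 and WDHD1. For these genes a high EP level was partly built in. A match is a description of letters and not of a bound site, and a window without one says nothing of the factor.

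Values are on the scale of FPKM (fragments scaled for transcript length and sequencing depth) and were rescaled here between libraries. The libraries fell into 3 sets, namely LM, LP with 6 MSC libraries, and the other 10 MSC libraries. Any pair of libraries had 1382 to 6488 positive values in common within a set and 0 across sets, and the mean of a gene was nearly the same in each set. Levels and sizes of folds were therefore compared only within a set, and never between LM and another fraction. Read depth is unknown. Values of a group are listed in order of mouse number. Library totals of the values lay between 281351 and 349128 for LM, 297710 and 358375 for LP, and 217977 and 356258 for MSC. A change is an adjusted p under 0.05 by limma on log2(value + 1), with Benjamini-Hochberg adjustment over all genes tested, and a log2 fold is a difference on that scale, which understates changes of genes near 0. Each treatment group held different mice, and p-values measure the spread between these mice. In sorted bulk RNA, fewer dividing cells and less of a transcript per cell cannot be told apart. Values as deposited moved the median EP fold of all genes by 0.16 in LM and 0.24 in LP, where the 49 genes then had medians of 1.47 and 1.40, and changes are given relative to the rescaled values. PCNA and TYMS have pseudogene copies in the annotation that could share their reads, so their levels are uncertain.

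Some libraries stood apart from their group. The LM EP+TPA library of mouse 332 had a summed level of 10 luminal progenitor markers of 762, where the group's median was 9950, its highest sum was 10300, and the 3 LM EP libraries had 794 to 837. In LP the same sum was 905 to 4130 with EP and 8090 to 14400 in sham, so the marker makeup of the luminal fractions moved with EP, and its part in the results below was not tested. Of these 10 markers, 5 fell and 1 rose with EP in LM, and 8 fell in LP. The 10 luminal mature markers summed to 562 to 1330 in LM sham, 335 to 1580 with EP, 72.5 to 165 with EP+TPA and 45.3 to 95.7 with EP+RU486. The EP+TPA range includes mouse 332, which on this list lay below every LM EP library. Fibroblast markers summed to 114 to 224 in LP EP and 30.5 to 166 in LP sham. Basal markers, which should define the MSC fraction, summed to between 8.03 and 11000 in MSC libraries, and KRT14 was listed at 0 in 3 of the 16. Endothelial and adipocyte sums in MSC ran from 0 to 1850 and from 0 to 10700.

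Most of the replication genes were higher with EP in luminal progenitors. With EP, 43 of the 49 genes rose against sham, 1 fell and 5 did not pass, at a median log2 fold of 1.13, where 16.3% of all 11384 genes tested rose, 16.1% fell and the median was 0.005. Leaving out the 6 genes that passed the filter on low values through the EP libraries (WDHD1, DSCC1, POLE, GINS3, CDC6, MCM10), 37 of 43 rose at a median of 1.12. Counted over all 49, the rise took in every role. It held for 9 of 11 licensing and helicase genes, 3 of 4 GINS genes, 6 of 8 clamp and loader genes and all 3 RPA genes. Also higher were 8 of 9 polymerase and primase genes, both joining genes, all 5 nucleotide genes and all 7 chromatin and fork genes. The largest folds were those of RRM2, MCM5, TK1, MCM2 and MCM6.

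MCM2, a subunit of the helicase ring, stood at 4.18, 4.97, 3.91 and 4.62 in the 4 sham libraries and at 26.6, 32.5, 23.2 and 18.9 with EP, a log2 fold of 2.26 (adjusted p = 5.12e-08, SE 0.14). Its ring partner MCM5 went from 4.23, 3.71, 3.77 and 4.28 to 30.2, 40.9, 28.2 and 13.7, a fold of 2.46 (adjusted p = 1.42e-06, SE 0.22). For both, the lowest EP library, mouse 327, lay well above the highest sham library. GINS1, a subunit of the helicase activator GINS, was at 1.12, 0.857, 0.483 and 0.8003 in sham and 6.52, 7.37, 5.94 and 3.698 with EP (log2 fold 1.90, adjusted p = 3.82e-06, SE 0.19). RFC4, a clamp loader subunit, was at 4.68, 5.29, 4.498 and 7.01 and 16.5, 22.5, 14.4 and 8.72 (log2 fold 1.32, adjusted p = 0.00015, SE 0.20). The groups did not overlap for either gene, and mouse 311 was the highest of the EP libraries in all 4.

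RRM2, the subunit of ribonucleotide reductase that is limiting in S phase, had the largest fold of the 49. Its sham levels of 1.62, 1.28, 1.85 and 1.35 rose to 15.8, 18.1, 12.5 and 18.01, a log2 fold of 2.75 (adjusted p = 5.35e-07, SE 0.22). Here mouse 327 was among the highest EP libraries, unlike for MCM5. CHAF1B, a subunit of the CAF-1 chaperone that places histones behind the fork, rose from 2.796, 2.895, 2.83 and 4.499 to 17.02, 20.8, 16.3 and 11.9 (log2 fold 2.03, adjusted p = 5.28e-07, SE 0.16). LIG1, the ligase that seals Okazaki fragments, rose from 5.07, 4.33, 6.03 and 4.83 to 16.7, 20.1, 14.5 and 7.93 (log2 fold 1.32, adjusted p = 0.000199, SE 0.21). Smaller levels moved in the same way: RPA2, of the single-strand binding trimer, reached 13.2, 15.6, 10.2 and 7.98 from 4.302, 3.71, 4.17 and 3.94 (log2 fold 1.30, adjusted p = 2.13e-05, SE 0.16). POLE, the catalytic subunit of polymerase epsilon, was under 1 in every sham library, at 0.163 to 0.242, and at 2.100, 2.11, 1.11 and 1.33 with EP (log2 fold 1.13, adjusted p = 1.68e-05, SE 0.13). None of these genes had an EP library within the range of sham. POLE had passed the filter on low values through the EP libraries, so for it a high EP level was partly built in.

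**Figure D1:**
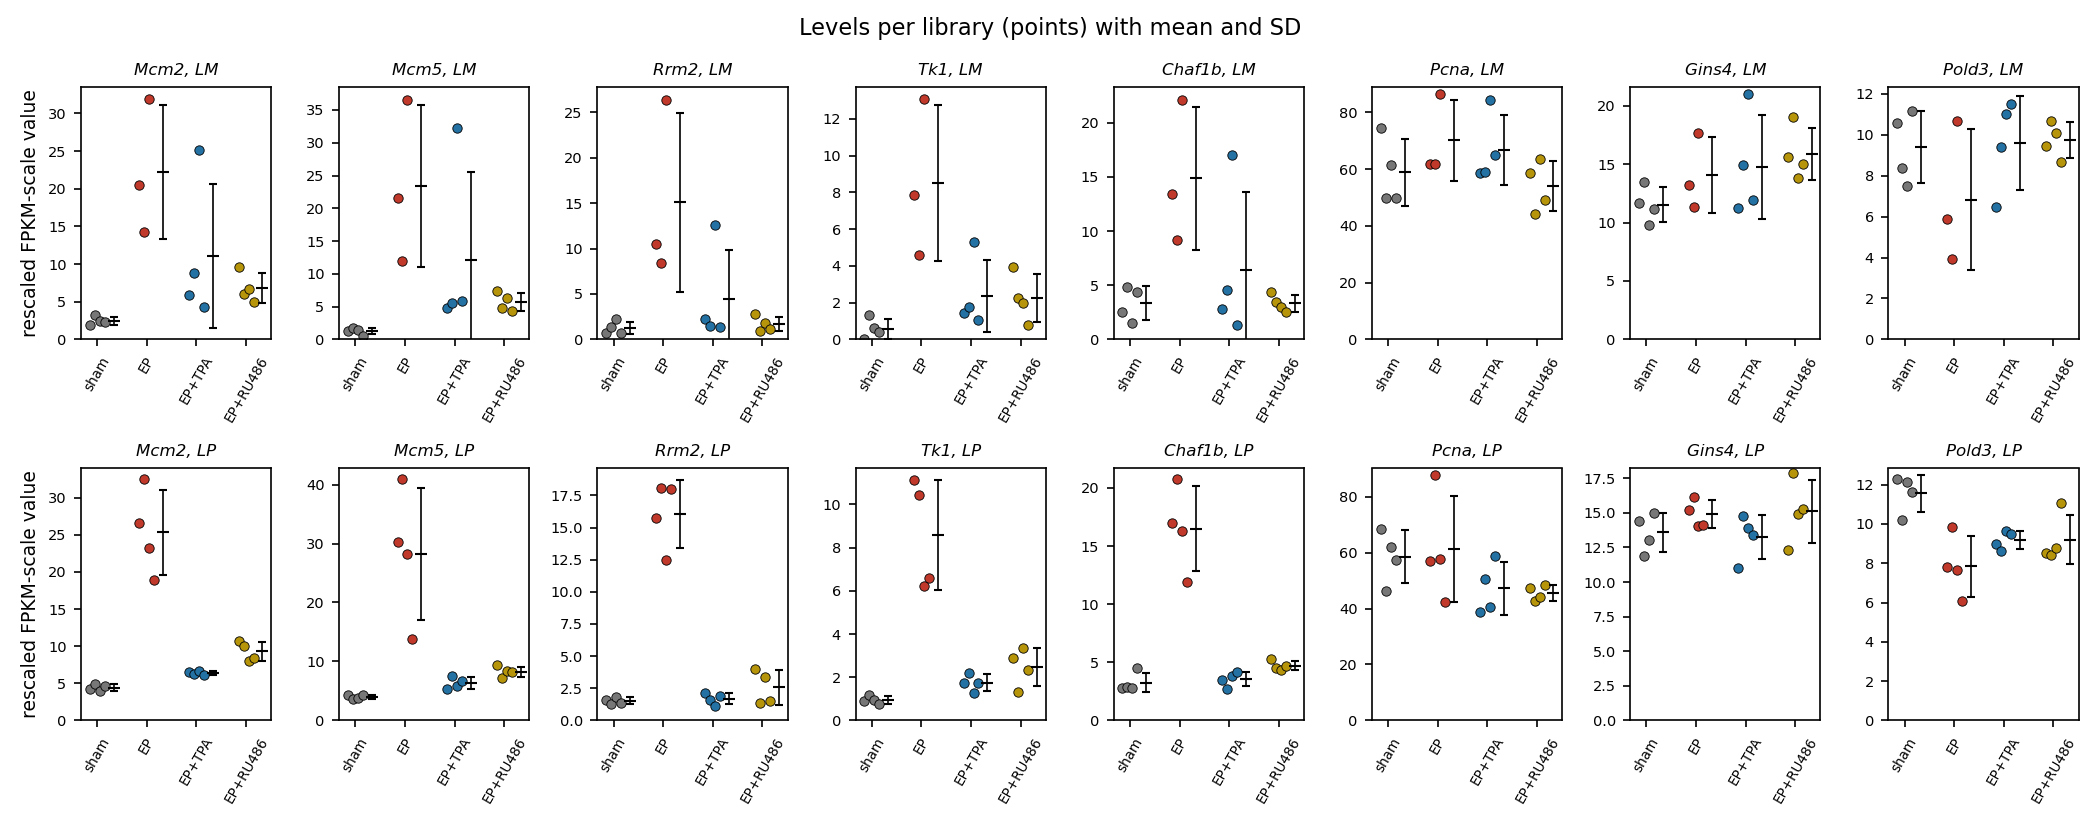
Levels of 8 replication genes per library in LM (top row) and LP (bottom row) by treatment, as rescaled FPKM-scale values from 0, with the mean and SD of each group beside the points (lower SD limits under 0 are not drawn). MCM2, MCM5, RRM2, TK1 and CHAF1B are high in the EP libraries and in the 1 LM EP+TPA library of mouse 332. PCNA, GINS4 and POLD3 were not called higher with EP in either fraction. In LM, mouse 332 still has the highest GINS4 level (21.0). PCNA is highest there in EP mouse 327 (86.6) and next in mouse 332 (84.5). The genes were chosen after their values were seen.

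In luminal mature cells 37 of the 48 genes tested rose with EP, none fell and 11 did not pass (42 were higher and none lower at an unadjusted p under 0.05, against 17.7% and 16.4% of all genes). The median log2 fold was 1.30, where 10.3% of all 11894 genes tested rose, 9.14% fell and the median was -0.013. GINS3 was not tested because 2 of the 15 libraries, both EP, reached a value of 1. Without the 5 genes that passed the filter through the EP libraries (WDHD1, DSCC1, POLE, CDC6, MCM10), 32 of 43 rose, at a median of 1.32. By role, counted over all 48, 9 of 11 licensing and helicase genes rose, 1 of 3 GINS genes, 4 of 8 clamp and loader genes and 2 of 3 RPA genes. So did 7 of 9 polymerase and primase genes, both joining genes, all 5 nucleotide genes and all 7 chromatin and fork genes. Without the EP library of mouse 327, which had the highest levels, 20 rose. The share of all genes that rose without that library is not given here.

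MCM5 had the largest fold, from 1.33, 1.802, 1.41 and 0.585 in sham to 21.5, 11.99 and 36.5 with EP, a log2 fold of 3.31 (adjusted p = 0.00093, SE 0.51). MCM3, of the same ring, rose from 2.95, 4.16, 4.17 and 3.03 to 21.6, 12.97 and 29.6 (2.23, adjusted p = 0.000855, SE 0.35). The 3 EP libraries (mice 306, 311 and 327 in that order) kept 1 order for both genes, with 327 highest and 311 lowest, and did not overlap sham. TK1, which salvages thymidine, was listed at 0 in 1 sham library and at up to 1.31 in the others, and stood at 7.84, 4.61 and 13.1 with EP (log2 fold 2.55, adjusted p = 0.0014, SE 0.43). RRM2 went from 0.736, 1.35, 2.22 and 0.735 to 10.5, 8.37 and 26.4 (2.72, adjusted p = 0.00406, SE 0.54). UNG, the uracil DNA glycosylase that removes uracil from new DNA, was at 1.64, 1.26, 1.096 and 1.03 and 7.27, 4.24 and 10.8 (log2 fold 1.83, adjusted p = 0.000994, SE 0.30). The lowest EP library was again clear of the highest sham library for each.

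DSCC1, part of the alternative clamp loader that serves sister chromatid cohesion, was listed at 0 in 2 sham libraries and at no more than 0.134 in the others. With EP it stood at 3.34, 1.91 and 4.74 (log2 fold 1.999, adjusted p = 0.000733, SE 0.31). POLE2, the second subunit of polymerase epsilon, rose from 1.23, 1.27, 0.524 and 1.24 to 3.63, 2.55 and 7.01 (1.32, adjusted p = 0.00325, SE 0.26). LIG1 rose from 2.59, 3.49, 2.75 and 3.35 to 13.5, 7.92 and 19.7 (1.79, adjusted p = 0.00472, SE 0.37). GINS1 stood at 0.751, 0.975, 1.39 and 0.256 in sham and 5.28, 2.62 and 9.77 with EP (1.80, adjusted p = 0.0147, SE 0.46). RPA2 stood at 3.17, 4.16, 4.59 and 3.200 and 9.79, 7.13 and 15.6 (1.26, adjusted p = 0.00956, SE 0.30). All 5 genes had EP and sham libraries that did not overlap. Over the 48 genes, EP lay above sham without overlap for 40, against 15.9% of all genes tested. The 48 include the 5 genes, DSCC1 among them, that passed the filter on low values through the EP libraries. For those genes a high EP level was partly built in.

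A few members of the machinery did not follow. PCNA, the sliding clamp itself, had the highest mean level of the 49 genes in LM and in LP. It stood at 68.5, 46.1, 61.9 and 57.3 in LP sham and 56.9, 87.6, 57.8 and 42.3 in LP EP (log2 fold 0.03, adjusted p = 0.925, SE 0.19). In LM it was at 74.5, 49.7, 61.5 and 49.9 and 61.96, 61.97 and 86.6 (log2 fold 0.25, adjusted p = 0.413, SE 0.20). The groups overlapped in both fractions, whereas RFC4 and RFC5, which load the clamp, rose in both. GINS4 stayed between 9.81 and 17.7 in LM sham and EP, and between 11.9 and 16.2 in LP, with log2 folds of 0.25 (adjusted p = 0.451, SE 0.22) and 0.13 (adjusted p = 0.445, SE 0.12). Its partner GINS1 rose in both fractions.

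CDT1, the licensing factor that geminin inhibits, was at 13.2, 4.58, 7.44 and 6.61 in LP sham and 10.1, 13.5, 7.05 and 4.11 with EP (log2 fold 0.09, adjusted p = 0.846, SE 0.30). The sham library of mouse 301 was the highest of its group in LP and, at 14.3, in LM as well, where the fold was 0.70 (adjusted p = 0.3, SE 0.45). Geminin itself rose, at log2 folds of 1.82 (adjusted p = 3.82e-06, SE 0.18) in LP and 2.18 (adjusted p = 0.00666, SE 0.48) in LM. RPA1, the large RPA subunit, stood at 7.48, 15.5, 10.7 and 13.1 in LM sham and 12.3, 11.7 and 19.4 with EP (log2 fold 0.29, adjusted p = 0.408, SE 0.23), an overlap that RPA2 did not show. ORC6 and RFC1 did not pass in either fraction (log2 folds 0.37 and 0.28 in LP, 0.46 and 0.48 in LM). GINS2, PRIM2, RFC2 and RFC3 passed in LP and not in LM, at adjusted p of 0.0691, 0.0637, 0.0906 and 0.101, and the difference between the fractions was not tested.

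POLD3, an accessory subunit of polymerase delta, was the only gene with a negative fold in either luminal fraction. In LP it stood at 12.3, 10.2, 12.1 and 11.6 in sham and 7.82, 9.85, 7.63 and 6.09 with EP, without overlap, a log2 fold of -0.52 (adjusted p = 0.00478, SE 0.12). The call was lost with the values as deposited (-0.25, adjusted p = 0.15) and with equal totals (-0.34, adjusted p = 0.0561). In LM the 3 EP libraries were at 5.89, 3.94 and 10.7 against 10.6, 8.39, 7.49 and 11.2 in sham, which overlapped (log2 fold -0.49, adjusted p = 0.206, SE 0.26). The delta subunits POLD1 and POLD2 rose in both fractions, by 0.78 and 0.76 in LP and 1.15 and 0.89 in LM.

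**Figure D2:**
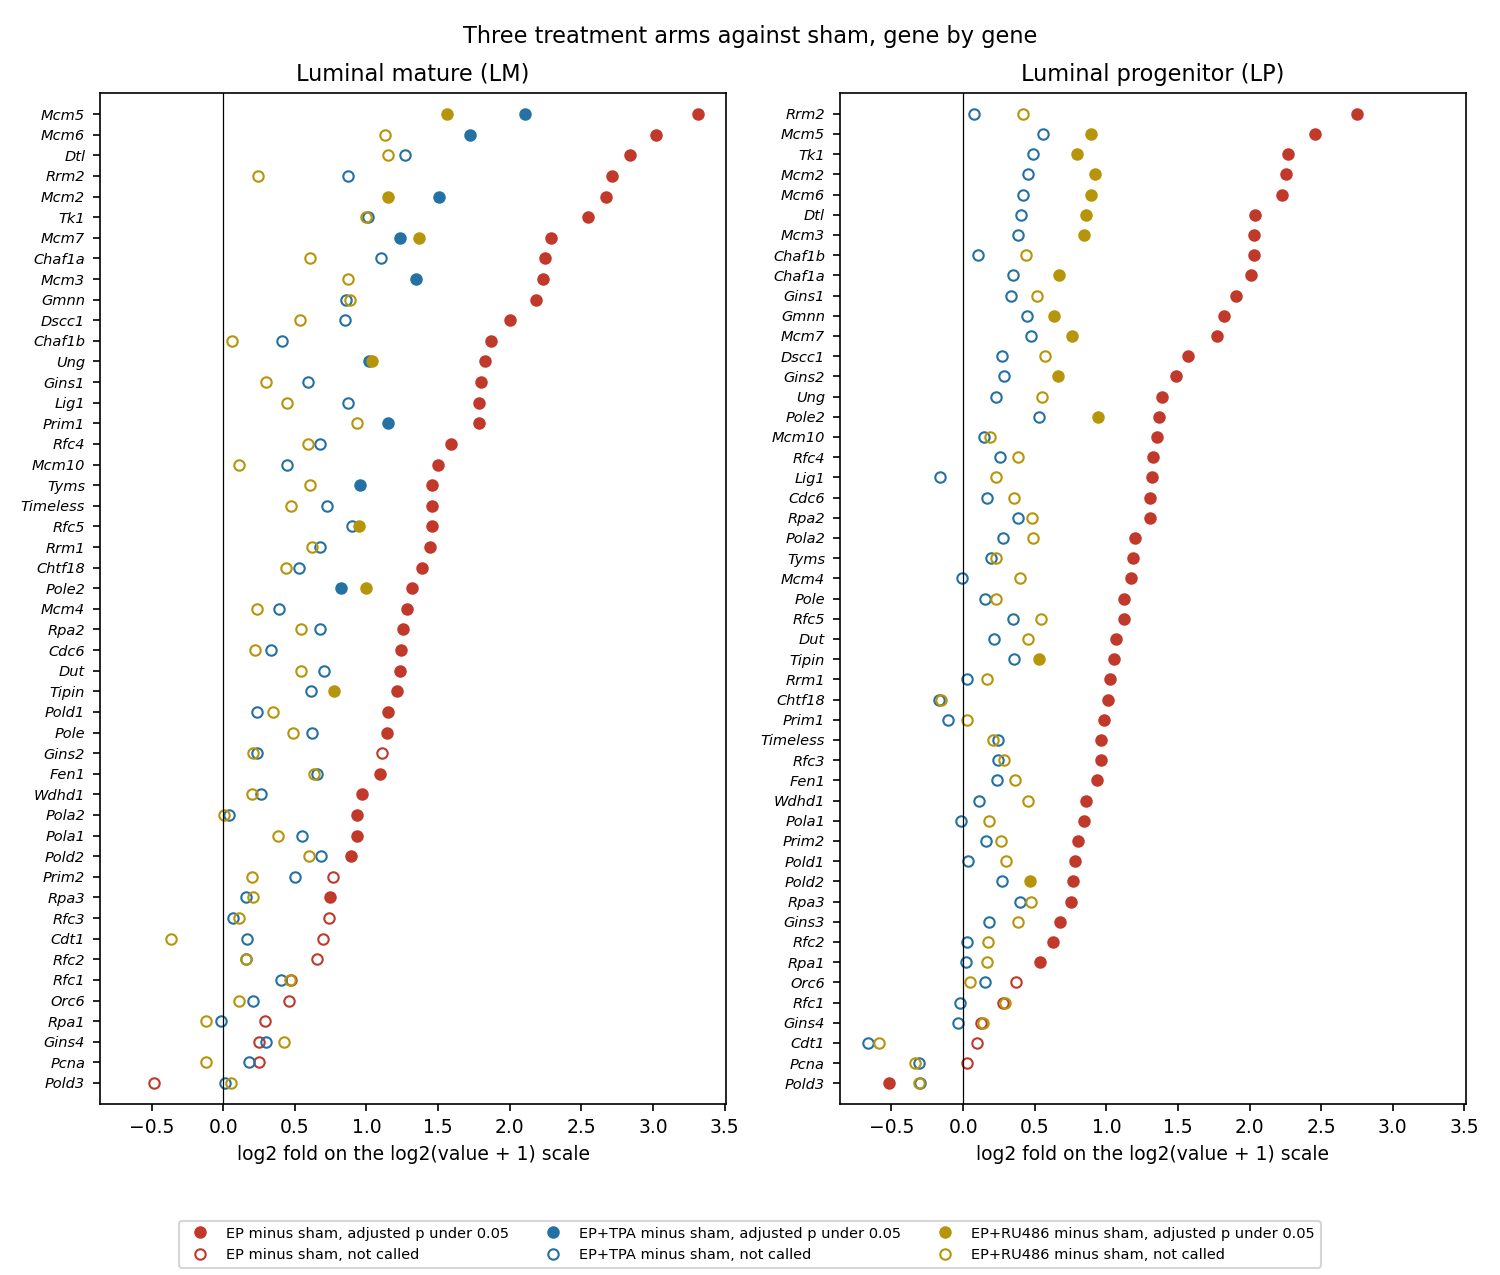
Log2 fold against sham of each replication gene tested in LM (left) and LP (right), for EP (red), EP+TPA (blue) and EP+RU486 (yellow), with filled points where the adjusted p was under 0.05 and genes ordered by the EP fold. The EP points reach 3.31 in LM and 2.75 in LP, and in LP the EP+TPA points lie between -0.66 and 0.55 with none filled.

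With telapristone acetate added to EP, most replication genes were lower than with EP alone in luminal progenitors. Of the 49 genes, 42 fell against EP and none rose, at a median log2 fold of -0.97, where 10.6% of all genes tested fell, 7.81% rose and the median was 0.003. All 5 nucleotide genes, all 7 chromatin and fork genes, 9 of 11 licensing genes and 8 of 9 polymerase genes fell. Of the 43 genes that pass the filter on low values without the EP libraries, 36 fell with EP+TPA and 33 with EP+RU486. In the same comparisons 9 of 10 luminal mature markers fell, at median log2 folds of -2.13 and -1.82, with sums of 114 to 132 (EP+TPA) and 111 to 180 (EP+RU486) against 196 to 1210 with EP and 287 to 525 in sham. Of the 10 luminal progenitor markers, 5 and 6 rose and 1 fell in each, with sums of 8120 to 10400 and 7420 to 9800 against 905 to 4130 with EP. The part of these markers in the results was not tested. RRM2 was at 2.16, 1.58, 1.13 and 1.87 in the 4 EP+TPA libraries (log2 fold against EP -2.67, adjusted p = 1.96e-06, SE 0.22), MCM2 at 6.51, 6.28, 6.67 and 6.16 (-1.80, adjusted p = 1.33e-06, SE 0.14) and CHAF1B at 3.46, 2.72, 3.82 and 4.18 (-1.93, adjusted p = 2.08e-06, SE 0.16). All 3 genes lay below every EP library, as did 37 of the 49, against 8.13% of all genes. That count was made over all 49, with the 6 genes that passed the filter through EP. Against sham, the EP+TPA libraries showed no called gene of the 49, where 1.79% of all genes rose and 3.3% fell (11 of the 49 were higher and 2 lower at an unadjusted p under 0.05, where 8.29% and 10.5% of all genes were, and library weights called 6 higher and 3 lower). Leaving out the LP library of EP mouse 327 called 2, and leaving out EP mouse 311 or EP+RU486 mouse 304 called 1. Shares of all genes called with library weights or without these libraries are not given here. The median fold against sham was 0.21. MCM2 did not overlap sham but did not pass, at 6.16 to 6.67 against 3.91 to 4.97 (log2 fold 0.45, adjusted p = 0.0748, SE 0.14).

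With mifepristone added, 37 of the 49 genes fell against EP in LP and none rose, at a median log2 fold of -0.82, where 11.8% of all genes fell, 9.03% rose and the median was -0.024. RRM2 stood at 4.04, 1.34, 3.39 and 1.49 (log2 fold against EP -2.33, adjusted p = 8.24e-06, SE 0.22), MCM2 at 10.7, 10.04, 8.04 and 8.45 (-1.33, adjusted p = 1.63e-05, SE 0.14) and LIG1 at 7.596, 6.13, 5.56 and 5.23 (-1.09, adjusted p = 0.00166, SE 0.21). None of these libraries reached the EP range. POLE2 did not pass and overlapped EP, at 1.27, 3.198, 3.996 and 3.92 with EP+RU486 against 5.06, 4.58, 4.34 and 3.22 with EP (log2 fold -0.43, adjusted p = 0.168, SE 0.21). Against sham, 13 genes were higher with EP+RU486 and none lower, at a median of 0.39, where 4.24% of all genes were higher and 6.39% lower. They were MCM2, MCM3, MCM5, MCM6, MCM7, GMNN, GINS2, POLD2, POLE2, TK1, CHAF1A, TIPIN and DTL. That count was 24 with values as deposited, and leaving out 1 sham or EP+RU486 library gave 4 (without sham mouse 310) to 9 (without sham mouse 305), with at most 8 without any other. Without EP mouse 327, which enters through the shared estimate of spread, it was 23.

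For the ring subunit MCM6, both antagonist groups of LP lay between sham and EP. MCM6 averaged 10.1 ± 0.822 (SD, n = 4) in sham, 13.8 ± 0.884 (SD, n = 4) with EP+TPA, 19.7 ± 2.78 (SD, n = 4) with EP+RU486 and 54.4 ± 21.2 (SD, n = 4) with EP. Compared directly, EP+TPA had the lower value in 45 of the 49 genes, at a median log2 difference from EP+RU486 of -0.19, and none passed (adjusted p = 1 for every gene; 5 were lower at an unadjusted p under 0.05, where 0.87% of all genes were, and 0 of all 11384 genes passed). The 95% intervals of the difference lay below 0 for MCM2 (-0.76 to -0.17), MCM3 (-0.79 to -0.13), MCM4, MCM6 and WDHD1, and no interval for the 49 reached beyond -0.96 or 0.56. These intervals are not adjusted for the number of genes. Doses of the antagonists are not given, so a difference between the compounds at matched doses could not be assessed.

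In luminal mature cells fewer genes passed between the antagonist groups and EP. With EP+RU486, 20 of 48 genes fell and none rose, at a median log2 fold of -0.85, where 9.55% of all genes fell and 8.31% rose. They included 7 of 11 licensing and helicase genes, 3 of 5 nucleotide genes and 5 of 7 chromatin and fork genes, but 1 of 9 polymerase and primase genes, POLA2. RRM2 stood at 2.74, 0.966, 1.81 and 1.17 (log2 fold against EP -2.47, adjusted p = 0.00772, SE 0.54) and MCM5 at 7.33, 4.81, 6.28 and 4.41 (-1.75, adjusted p = 0.0301, SE 0.51). Both lay below all 3 EP libraries, as did 30 of the 48 genes, against 19.3% of all genes. That count was made over all 48, with the 5 genes that passed the filter through EP. Of the 43 genes that pass the filter without the EP libraries, 16 fell. The luminal progenitor markers summed to 10400 to 13400 with EP+RU486 against 794 to 837 with EP, and 8 of 10 luminal mature markers fell. Their part in these values was not tested. The count of 20 moved with single libraries. Without mouse 327, 2 fell and 1 rose, and without mouse 306, 5 fell. Without the EP+RU486 libraries of mice 313, 329 and 333 in turn 8, 12 and 7 fell, and with library weights 39 fell. Shares of all genes under these alternatives are not given here.

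With EP+TPA in LM, 2 of 48 genes fell, MCM10 and DSCC1, at a median of -0.75, where 3.2% of all genes fell and 1.32% rose (29 of the 48 at an unadjusted p under 0.05, where 12.4% of all genes did). Both had passed the filter on low values through the EP libraries, and of the 43 genes that pass it without them 0 were called and 25 were lower at an unadjusted p under 0.05. The library of mouse 332 held levels in the range of EP: MCM5 was at 4.78, 5.52, 32.3 and 5.79 and RRM2 at 2.26, 1.51, 12.6 and 1.32 in mice 312, 328, 332 and 336 in that order. In the other 3 libraries both genes were below every EP library. Without mouse 332, 30 of 46 genes fell, where 9.15% of all genes did, and the folds of RRM2, MCM5 and CHAF1B were -2.43 (adjusted p = 0.000379, SE 0.37), -1.81 (adjusted p = 0.00119, SE 0.32) and -2.04 (adjusted p = 0.00173, SE 0.38). Without that library and the lowest EP library, of mouse 311, 35 of 43 fell, an alternative chosen after the data were seen. The share of all genes that fell in that alternative is not given here. Leaving out any 1 of the other EP+TPA libraries, or EP mouse 306 or 327, left 0 called, and leaving out 1 sham or EP+RU486 library other than sham mouse 301 left 1. The low luminal progenitor marker sum of mouse 332 is given above, and its part in these values was not tested.

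Compared with sham, a few replication genes were higher in the LM antagonist groups. With EP+TPA 9 genes were higher and none lower, where 6.87% of all genes were higher and 9.26% lower, and with EP+RU486 7 were higher and none lower, where 9.74% were higher and 11.9% lower. MCM2, MCM5, MCM7 and POLE2 were in both lists, and UNG was as well. POLE2 stood at 2.26, 2.97, 3.13 and 2.18 with EP+TPA and 3.57, 3.605, 3.17 and 2.12 with EP+RU486, above all 4 sham libraries, with log2 folds of 0.82 (adjusted p = 0.0277, SE 0.24) and 0.997 (adjusted p = 0.0081, SE 0.24). Both counts moved with single libraries, the first between 4 (without sham mouse 326) and 15 (without EP+TPA mouse 336), with 5 without sham mouse 310. Without EP+TPA mouse 332, which stood apart, 6 of 46 were higher with EP+TPA (7.55% of all genes), and MCM7, POLE2 and PRIM1 were no longer among them, while MCM5 had a fold of 1.51 (adjusted p = 0.00325, SE 0.30). The second count was 4 or fewer without sham mouse 301, 310 or 326 or EP+RU486 mouse 308, 313 or 329. It was 15 of 46 without EP+TPA mouse 332, a library of neither group that enters through the shared estimate of spread, where 13.1% of all genes were higher. With library weights it was 25, for which the share of all genes is not given here. Between EP+TPA and EP+RU486 no gene of the 48 passed, nor any of the 11894 tested (0 of the 48 and 1588 of all genes, or 13.4%, at an unadjusted p under 0.05), and 37 of the 48 intervals at 95% stayed within a log2 difference of 1 either way.

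**Figure D3:**
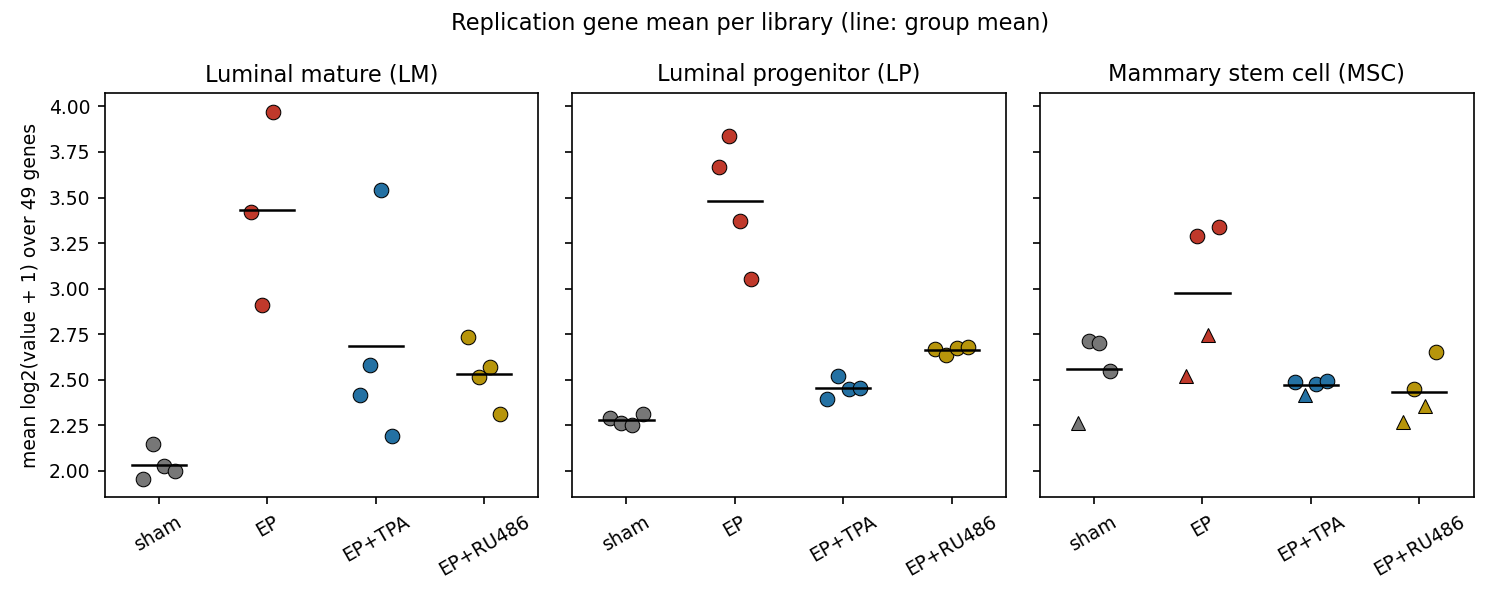
Mean of log2(value + 1) over the 49 genes in each library (points), by treatment and fraction, with group means as lines. Triangles are the 6 MSC libraries of the set that holds LP, as inferred from shared values. Heights are compared only within a fraction and symbol. LP sham libraries lie at 2.25 to 2.31 and LP EP libraries at 3.05 to 3.83, while 1 LM EP+TPA library reaches 3.54.

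Averaged over the 49 genes, log2(value + 1) was 1.96 to 2.15 in LM sham, 2.91 to 3.97 in LM EP, 2.19 to 3.54 in LM EP+TPA and 2.31 to 2.73 in LM EP+RU486. In LP it was 2.25 to 2.31 in sham, 3.05 to 3.83 in EP, 2.39 to 2.52 in EP+TPA and 2.64 to 2.68 in EP+RU486. The LP groups did not overlap, in the order sham, EP+TPA, EP+RU486 and EP. In LP the EP libraries spread most, with an SD of 0.345 against 0.0206 to 0.0523 in the other 3 groups. In LM the SD was 0.593 with EP+TPA, which includes mouse 332, and 0.529 with EP. The mice were not ranked alike in the luminal fractions. Mouse 311 was lowest of the 3 EP libraries in LM, at 2.91, and highest of the 4 in LP, at 3.83, whereas mouse 327 was highest in LM, at 3.97, and lowest in LP, at 3.05.

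**Figure D4:**
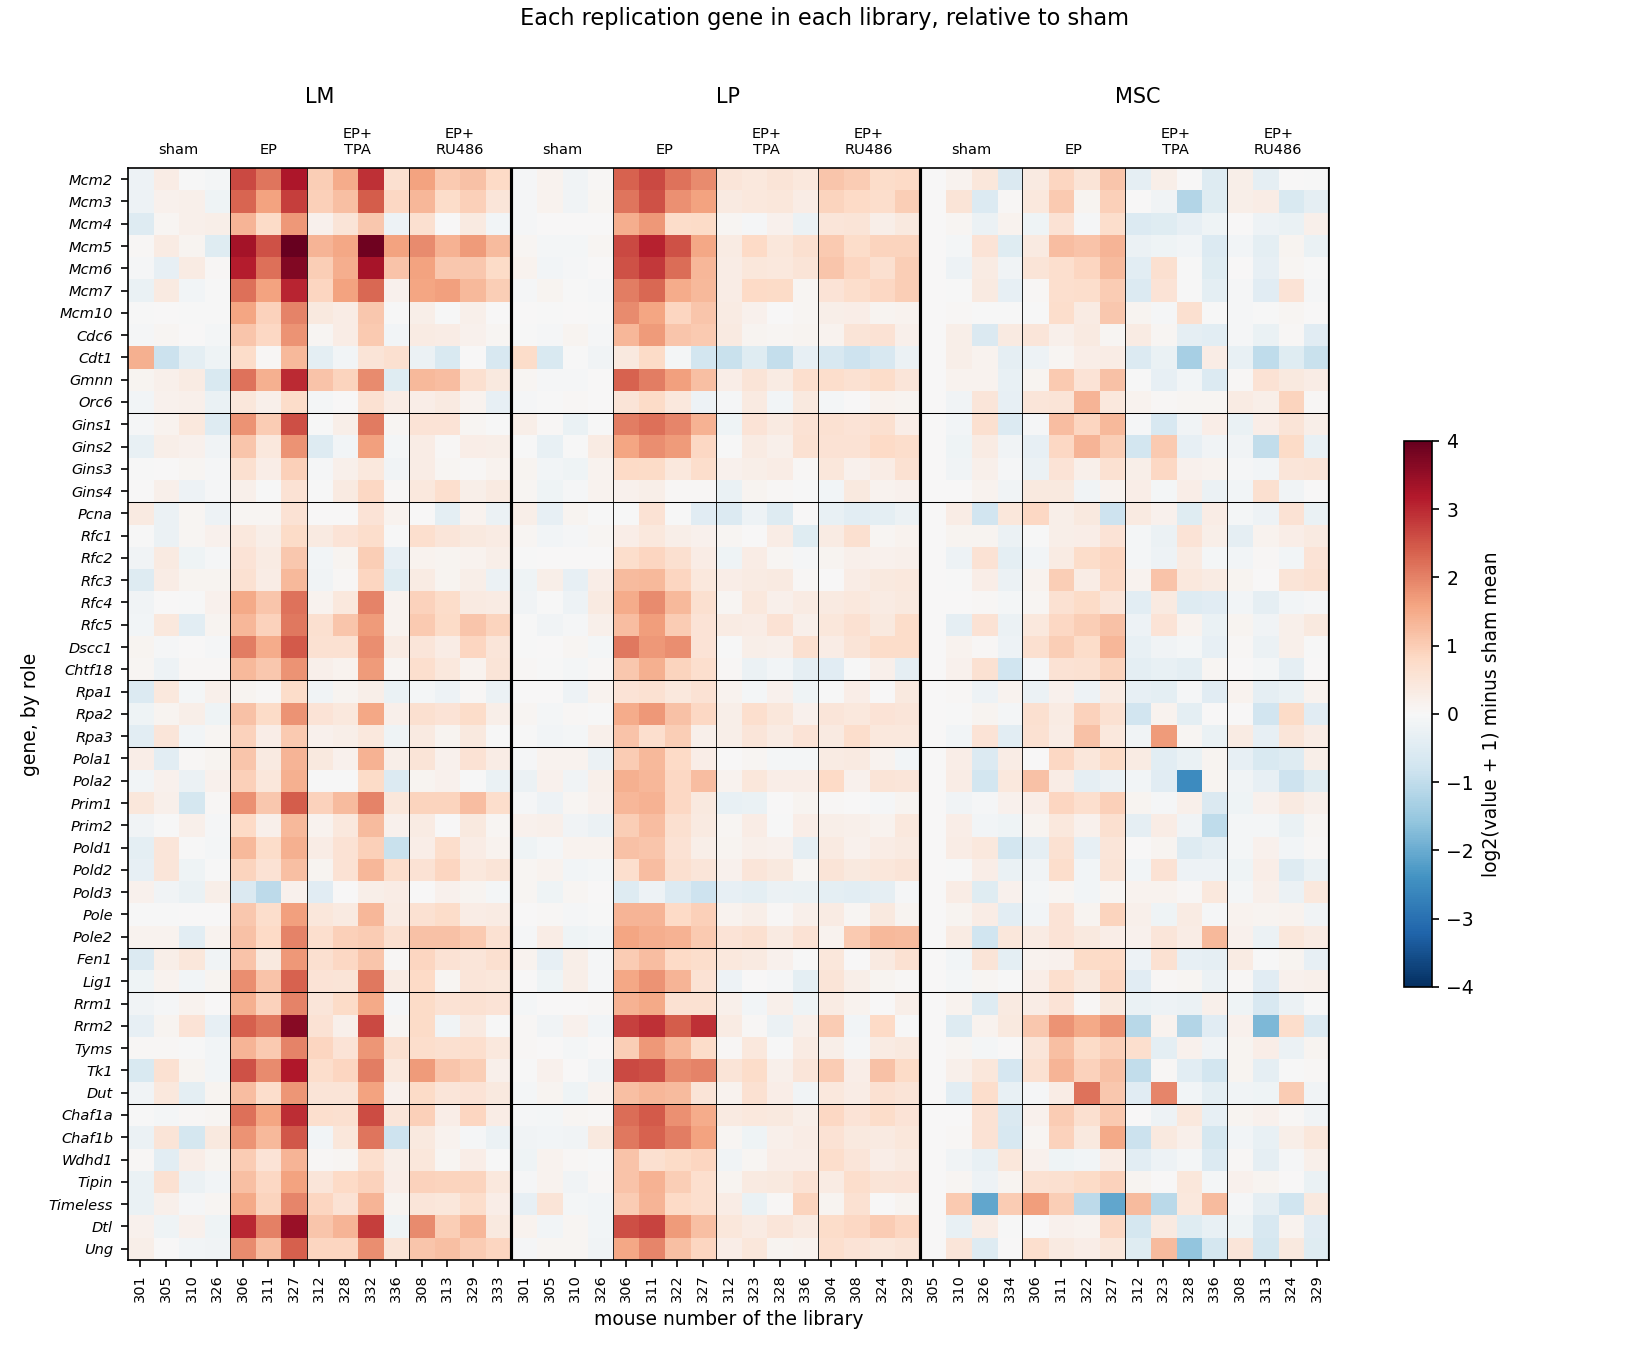
Each of the 49 genes (rows, grouped by role) in each of the 47 libraries (columns, by fraction, treatment and mouse), as log2(value + 1) minus the sham mean of the fraction, for MSC of the same set of libraries. Red columns mark EP in LM and LP and the LM EP+TPA library of mouse 332; POLD3 is blue in the LP EP columns, and the 1 sham library of the smaller MSC set, mouse 305, is 0 by construction.

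The MSC fraction gave no called gene. With EP, 0 of 47 genes tested passed, nor did any of the 12188 tested (0%), but 46 of the 47 folds were positive, with a median of 0.52 against -0.034 over all genes. At an unadjusted p under 0.05, 18 of the 47 were higher and none lower, where 2.56% of all genes were higher. DSCC1, WDHD1 and GINS3 had passed the filter on low values through the EP libraries, and without them 17 of 44 were higher. MCM10 and POLE were not tested because their values were low. Library weights, which discount libraries that depart from their group, called 26. The share of all genes called with these weights is not given here, so that count is not to be set against the 0% above. RRM2 had the largest fold, 1.41 (adjusted p = 0.833, SE 0.43). In the smaller set of MSC libraries, which holds LP, it stood at 6.53 and 9.19 with EP and 2.57 in sham. In the larger set it stood at 16.7 and 16.4 with EP and at 2.497, 4.51 and 5.68 in sham. Every EP library was above every sham library of its set.

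The next genes had the smallest p of their roles, and none passed the test. TYMS was at 4.07 and 5.17 and 7.19 and 5.93 in the EP libraries of the smaller and larger set, against 2.64 in the first and 2.72, 2.398 and 2.56 in the second for sham (log2 fold 0.93, adjusted p = 0.43, SE 0.19). DSCC1 was at 1.09 and 1.22 and 2.42 and 3.34 with EP, against 0.3295 and 0.904, 0.796 and 0.518 (0.94, adjusted p = 0.43, SE 0.17). TIPIN, which steadies the fork with TIMELESS, was at 15.8 and 17.6 and 19.4 and 23.8, against 9.99 and 12.9, 10.3 and 13.2 (0.74, adjusted p = 0.43, SE 0.16). For these 3 genes EP and sham did not overlap within a set.

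MCM5 had EP values of 5.34 and 10.03 in the smaller set and 20.5 and 22.7 in the larger, with sham at 3.99 and at 7.69, 12.6 and 5.603 (1.03, adjusted p = 0.58, SE 0.25). PRIM1, the catalytic primase subunit, had EP values of 5.11 and 6.98 in the smaller set and 13.3 and 14.2 in the larger, with sham at 4.03 and at 6.11, 6.53 and 7.83 (0.73, adjusted p = 0.646, SE 0.20). GINS1 was at 1.25 and 3.23 in the smaller set and 4.698 and 5.04 in the larger, with sham at 1.32 and at 1.27, 2.78 and 0.682 (0.95, adjusted p = 0.837, SE 0.29). In each the EP libraries of the larger set were clear of sham. RPA2 was at 6.89 and 8.598 in the smaller set and 9.32 and 11.6 in the larger, with sham at 4.07 and at 7.07, 7.88 and 6.695 (0.51, adjusted p = 0.937, SE 0.24), and LIG1 at 4.08 and 4.53 in the smaller set and 10.3 and 11.9 in the larger, with sham at 3.198 and at 5.695, 6.61 and 6.13 (0.55, adjusted p = 0.849, SE 0.19). For MCM5, PRIM1, RPA2 and LIG1 both EP libraries of each set exceeded sham, while for GINS1 the EP library at 1.25 was below sham at 1.32.

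Both EP libraries of a set lay above all its other MSC libraries, sham and antagonist alike, for 12 of 47 genes in the smaller set (4.87% of all genes) and 29 of 47 in the larger (2.61%). For 11 genes this held in both sets, against 75 of all 12188 genes, or 0.615%. Without the genes that passed the filter through EP, the counts were 11, 27 and 10 of 44. The 11 were TYMS, RRM1, RRM2, TK1, DSCC1, MCM2, MCM5, TIPIN, POLA1, CHAF1A and LIG1. None of the 47 lay below in both sets, as 0.197% of all genes did. At the other end were WDHD1, PCNA and TIMELESS, with folds of 0.04 (adjusted p = 0.981, SE 0.20), 0.06 (adjusted p = 0.981, SE 0.34) and -0.03 (adjusted p = 0.995, SE 0.89). TIMELESS was at 18.96 and 2.03 and 7.398 and 0 with EP and at 5.23 and 7.77, 0 and 7.57 in sham, smaller set first, so its values spread widely within both groups. PCNA was at 119 and 88.4 with EP and 66.5 in sham in the smaller set, and at 81.5 and 38.4 and 84.8, 40.4 and 95.2 in the larger. WDHD1, a replisome scaffold, was no higher than 1.70 in any MSC library.

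The antagonist groups of MSC had median folds against EP of -0.63 (EP+TPA) and -0.58 (EP+RU486), with 0 of 47 called in each and 0% of all genes. With EP+TPA, 4 fell without EP mouse 306 and 2 without EP+RU486 mouse 313. Library weights called 21 (EP+TPA) and 13 (EP+RU486). Shares of all genes under these alternatives are not given here. At an unadjusted p under 0.05, 25 and 22 of the 47 were lower and none higher, where 3.65% and 3.01% of all genes were lower. Without the 3 genes that passed the filter through EP, 24 and 21 of 44 were lower. DSCC1, 1 of those 3, had the smallest p, with -1.16 (adjusted p = 0.0624, SE 0.17) for EP+TPA and -0.93 (adjusted p = 0.231, SE 0.17) for EP+RU486. RRM2 had the largest folds, -2.06 and -1.92. Against sham the medians were -0.10 and -0.05, with 0 called and 1 lower at an unadjusted p under 0.05 in each comparison, where 1.85% and 2.05% of all genes were. Between the antagonists the median was -0.07, with 0 called and 2 lower at an unadjusted p under 0.05 (0.919% of all genes). The counts called also stayed at 0 without the libraries of mice 312 and 313, an alternative chosen after the data were seen. Their basal marker sums were 160 and 8.03. With 0 called before and fewer libraries left, that outcome cannot show what part these libraries had in the folds, which was not tested.

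Levels in MSC and LP were set side by side in the 6 mice whose 2 libraries lay in the same inferred set. These were 1 sham, 2 EP, 1 EP+TPA and 2 EP+RU486 mice. In MSC, 22 of 46 genes were lower than in LP and 1 was higher, where 16.5% of all 11896 genes were lower and 22.7% higher. With values as deposited 40 were lower and 0 higher, and with equal totals 35 and 0, so the count and PCNA's call depend on the scaling. With the mouse as a block the counts were 21 and 1, where 15.4% and 23.4% of all genes were lower and higher. MCM6 averaged 8.53 ± 2.45 in MSC and 28.8 ± 22.5 in LP (SD, n = 6, treatments pooled), a log2 difference of -1.36 (adjusted p = 0.00334, SE 0.26). RFC5 and RFC4 differed by -0.86 (adjusted p = 0.00187, SE 0.15) and -0.92 (adjusted p = 0.00305, SE 0.18). Those 3 genes were lower in MSC in 6 of 6 mice. PCNA went the other way, at 85.1 ± 21.6 in MSC and 49.7 ± 6.53 in LP, a difference of 0.74 (adjusted p = 0.00355, SE 0.15), and was higher in MSC in 6 of 6 mice. Without mouse 324, 12 were lower and 1 was higher.

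Other genes of the same processes moved with the 49 in part. Of 12 further licensing and firing genes tested in LP, 5 rose with EP and none fell, among them CDC45 (1.91, SE 0.16), the helicase cofactor, TOPBP1 (1.42, SE 0.16) and the kinase CDC7 (1.14, SE 0.17). In LM also 5 of 12 rose. Among other fork genes 8 of 16 rose and 1 fell in LP, with log2 folds of 2.22 (SE 0.20) for topoisomerase TOP2A and 1.06 (SE 0.11) for the nuclease EXO1. In LM 6 of 15 rose and 1 fell. The polymerase delta subunit POLD4 was the 1 that fell in each, with log2 folds of -0.67 (SE 0.11) in LP and -0.84 (SE 0.27) in LM. POLD4, DGUOK, TK2, RRM2B, RB1 and RBL2 are named because they fell, a choice made after their values were seen. Of 11 genes of replication-coupled chromatin, 5 rose and none fell in each fraction, among them in LP HELLS (2.25, SE 0.22) and ASF1B (1.53, SE 0.16).

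Among 26 further nucleotide genes, 16 rose and 1 fell in LP and 11 rose and 3 fell in LM. DCTPP1, which clears unusual nucleotides, rose by 2.16 (SE 0.20) in LP, and CAD, which starts pyrimidine synthesis, by 1.45 (SE 0.20). DGUOK, the mitochondrial deoxyguanosine kinase, fell in both fractions, with log2 folds of -0.71 (SE 0.17) in LP and -0.92 (SE 0.27) in LM. In LM the mitochondrial thymidine kinase TK2 and RRM2B, the reductase subunit used outside S phase, fell as well, at -0.96 (SE 0.30) and -0.72 (SE 0.21), while TK1 and RRM2 rose there. Of 29 genes of E2F and G1/S control, 12 rose and 6 fell in LP and 8 rose and 4 fell in LM. MYBL2 (1.75, SE 0.13), TFDP1 (1.46, SE 0.13) and CDK4 (1.40, SE 0.11) rose in LP, and of the pocket proteins, which restrain E2F, RB1 and RBL2 fell in both fractions while RBL1 rose in both, by 0.78 (SE 0.15) in LP and 0.94 (SE 0.29) in LM. Of these lists the mitotic one had the largest share that rose: 22 of 22 rose in LP, at a median of 1.83, and 22 of 23 in LM, at 2.24. These counts stand against the 16.3% of all genes that rose and 16.1% that fell in LP, and the 10.3% and 9.14% in LM. E2F and G1/S genes fell in a larger share than all genes in both fractions (6 and 4 genes). Nucleotide genes did so in LM (3 genes). For the other falls named here the share was below that of all genes, and no difference was tested. Mean log2(value + 1) over the mitotic genes was 0.13 to 0.214 in LM sham and 1.9 to 2.89 in LM EP. Genes of the further lists that passed the filter on low values through the EP libraries were not counted. For such genes a high EP level was partly built in.

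With the antagonists in LP, all 22 mitotic genes fell against EP in each comparison, at medians of -1.67 (EP+TPA) and -1.49 (EP+RU486). How many of them passed the filter on low values through the EP libraries was not counted. Of the 26 nucleotide genes outside the 49, 8 fell and 2 rose with EP+TPA and 6 fell and 2 rose with EP+RU486, and against sham 3 and 8 of them were higher with none lower. Of all genes, 10.6% fell and 7.81% rose with EP+TPA, 11.8% fell and 9.03% rose with EP+RU486, and 1.79% and 4.24% were higher than sham. SHMT2, DCTPP1 and DTYMK were higher than sham in both antagonist groups. In MSC none of the 6 lists had a called gene with EP, and the mitotic median was 0.76. The EP comparisons share their EP libraries with the antagonist comparisons, and the sham comparisons share sham, so a rise with EP and a fall from EP are not independent observations.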

How the data were processed

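Polyadenylated RNA from sorted cells was amplified with SMART-Seq v4 and read as pairs, per the labels' protocols. STAR, Cufflinks, DESeq2 and the build mm9 are named per the submitters' processing notes, with no versions and no order of steps. The deposited values were on the FPKM scale, although the authors' table calls them read counts: they were not whole numbers, so limma replaced the count test that had been foreseen. The 3 sets of libraries were inferred from the values. Values were rescaled within a set by median-ratio factors of 0.509 to 1.313, and 27 symbols that resemble dates were left out of 22007. To be fitted, a gene needed values of 1 or more in 3 libraries, and 3 libraries above the lowest value shared in their set. limma 3.58.1 in R 4.3.3 was run on log2(value + 1) with trend and robust moderation, all 4 groups of a fraction in 1 fit, a term for the set in MSC, and Benjamini-Hochberg adjustment over all genes tested at 0.05. Read depth behind a value is unknown, so no counting intervals are given.

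The 49 genes and the other gene lists were chosen with earlier results of these data known, and no test over a list is given. Values per library were given, by rule, for the gene of smallest p for EP against sham in each role and fraction, for the 3 of largest p, and for a gene called against the direction of most. Further genes shown in this way, such as MCM5 and RRM2 in both luminal fractions, were chosen after their values were seen. Same-mouse comparison of MSC and LP used the 6 mice with both libraries in 1 set, whose numbers pair them as the same animal. The fit was tested on simulated data with 200 changed genes, for EP against sham in LM (11354 genes) and LP (10990 genes). Of genes with a log2 fold of 1, it recovered 54% in LM and 81% in LP. Of genes with a log2 fold of 2, it recovered 92% and 98%. The false share of its calls was 6.41% in LM and 6.28% in LP. Both lay above the share that the adjusted p threshold is meant to hold. The changed genes were drawn only from genes with a mean log2(value + 1) above 2 in sham. Recovery was therefore not examined for genes of lower sham level, such as RRM2, TK1 and GINS1 in both luminal fractions. Nor is it given for groups with an outlying library. Alternatives covered scaling, pseudocount, filter, library weights, moderation, groups in the fit and leaving out each library.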

Additional observations from a re-analysis of the deposited data

Results flagged for a closer look

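Among the 4 LP sham libraries, mouse 305 stood apart from the others in its mean of log2(value + 1) over 2 roles. Over the polymerases and primase it had 2.30, where the other 3 libraries had 2.22 to 2.23. Over the nucleotide synthesis genes it had 1.98, where the others had 1.94. Both gaps are small beside the rise with EP. In all, 99 groups of values were examined and only these 2 were flagged. Chance flags about 1 in 20, which is a larger share.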

How the results depend on the processing

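The rise with EP in LP and the falls from EP in LP kept their direction, and their counts stayed within 1.5 times, under every alternative run. Several other counts of called genes moved. With values as deposited, the counts were 4 for LM EP+TPA against EP, 3 for LM EP+RU486 against sham, 1 and 24 for LP EP+TPA and EP+RU486 against sham and 40 for MSC against LP, and the mean difference of LP EP from sham was 1.47. With equal totals LM EP+RU486 against sham gave 4, LP EP+RU486 against sham 24 and MSC against LP 35. A pseudocount of 0.1 gave 0 for LM EP+TPA against EP, 11 for LM EP+RU486 against sham and 20 for LP EP+RU486 against sham. Without a filter LM and MSC EP+TPA against EP each gave 1, and with a mean of at least 1 the LM count was 0. Library weights gave 39 for both LM antagonists against EP, 16 and 25 for LM EP+TPA and EP+RU486 against sham, 9 and 27 for the same in LP, and in MSC 26 for EP against sham, 21 for EP+TPA and 13 for EP+RU486 against EP. With only the 2 groups compared, LM EP+TPA against EP gave 0, LM EP+RU486 against sham 19, and LP EP+TPA and EP+RU486 against sham 4 and 22. Without LM mice 332 and 311, an alternative chosen after seeing the data, LM EP+TPA against EP gave 35 and LM EP+RU486 against sham 20. The cause of these changes was not tested. Shares of all genes called under these alternatives are not given here, so these counts are not to be set against shares from the main fit.

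Leaving out 1 library gave 20 to 40 for LM EP against sham, 0 to 30 for LM EP+TPA and 3 to 25 for LM EP+RU486 against EP, 4 to 15 and 2 to 15 for the same against sham, and 0 to 2 and 4 to 23 for LP EP+TPA and EP+RU486 against sham. These ranges include libraries of groups outside the comparison, which share the estimate of spread and were added after seeing the data. It gave 0 to 4 for MSC EP+TPA against EP and 13 to 23 for MSC against LP. Folds near 0 changed sign. Without 1 library, LP folds with EP ran from -0.13 to 0.37 for CDT1 and from -0.16 to 0.19 for PCNA. MSC folds ran from -0.72 to 0.86 for TIMELESS, -0.057 to 0.12 for WDHD1 and -0.15 to 0.39 for PCNA. TIMELESS in MSC had 0.0035 with values as deposited, 0.0071 with equal totals, 0.0066 with library weights and 0.029 with no term for the set. WDHD1 had -0.052 with library weights and -0.065 with no term for the set, and PCNA -0.29 in the larger set alone.

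With the mouse as a replicate block, 22 genes differed between MSC and LP, against 23 without the block, and CDT1 lost its call (adjusted p = 0.0637). Within a fraction no paired analysis was possible because the treatments were given to different mice. The unknown number of reads limits what can be said of genes near 0, such as POLE and DSCC1 in sham.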
